A study of Rattus norvegicus with 8 samples.

Results

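The circadian clock genes Arntl, Clock, Npas2, Per1, Per2, Per3, Cry1, Nr1d1, Nr1d2 and Dbp were examined in rat lung by RNA sequencing. They were taken from the deposited gene table by gene symbol, and all 10 were found, each as 1 row among 32623 genes. All 10 passed the filter on low counts. There were 4 libraries of each of 2 groups: MCT, in which rats had received monocrotaline, a plant alkaloid that injures lung vessels and is used to model pulmonary hypertension, and control. The dose, the time after treatment, the strain, age and sex of the rats and the hour of tissue collection are not given in the sources used here. Whether each library stands for its own animal is not stated, so the p-values below speak of library-to-library spread, which may in part be technical.

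The mammalian clock is a feedback loop of transcription that runs in most cells, the lung included. ARNTL (also called BMAL1) pairs with CLOCK or its paralog NPAS2 and activates genes through a DNA motif named the E-box. Among those genes are the Per and Cry genes, whose proteins block the pair, and Nr1d1 and Nr1d2, which encode the repressors REV-ERB alpha and REV-ERB beta. The REV-ERB proteins repress Arntl, so that over a day Arntl transcripts peak roughly opposite to those of Nr1d1 and of the output factor Dbp. Levels of these transcripts therefore depend on the hour at which a tissue is taken. Most of this was worked out in mice.

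In MCT lungs Arntl was higher, at 2.26 times the control mean, and Per1 was lower, at 0.571 times the control mean. The other 8 clock genes did not pass the threshold, an adjusted p under 0.05 in edgeR's quasi-likelihood test over all 16715 genes tested. With 1 of 10 members, this stands beside 11% of all tested genes called higher in MCT, and the 1 lower member beside 9.45% called lower, so neither share stands apart from the background. The FPKM ranges of the groups did not overlap for 2 of the 10 members, against 25% of all tested genes. At an unadjusted p under 0.05 were 6 of the 10, against 33.8% of all tested genes. The median log2 fold change, MCT minus control, was -0.39 over the 10 members and 0.03 over all genes tested. Of the 10 estimates, 7 were below 0 and 3 above, beside 7958 below 0 among all 16715 tested genes. The positive ones belonged to the activators Arntl, Clock and Npas2, and the negative ones to the Per genes, Cry1, the REV-ERB genes and Dbp. Some of these signs are uncertain, as for Npas2 at 0.16 (SE 0.16), Clock at 0.36 (SE 0.23) and Nr1d1 at -0.35 (SE 0.58).

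**Figure D1:**
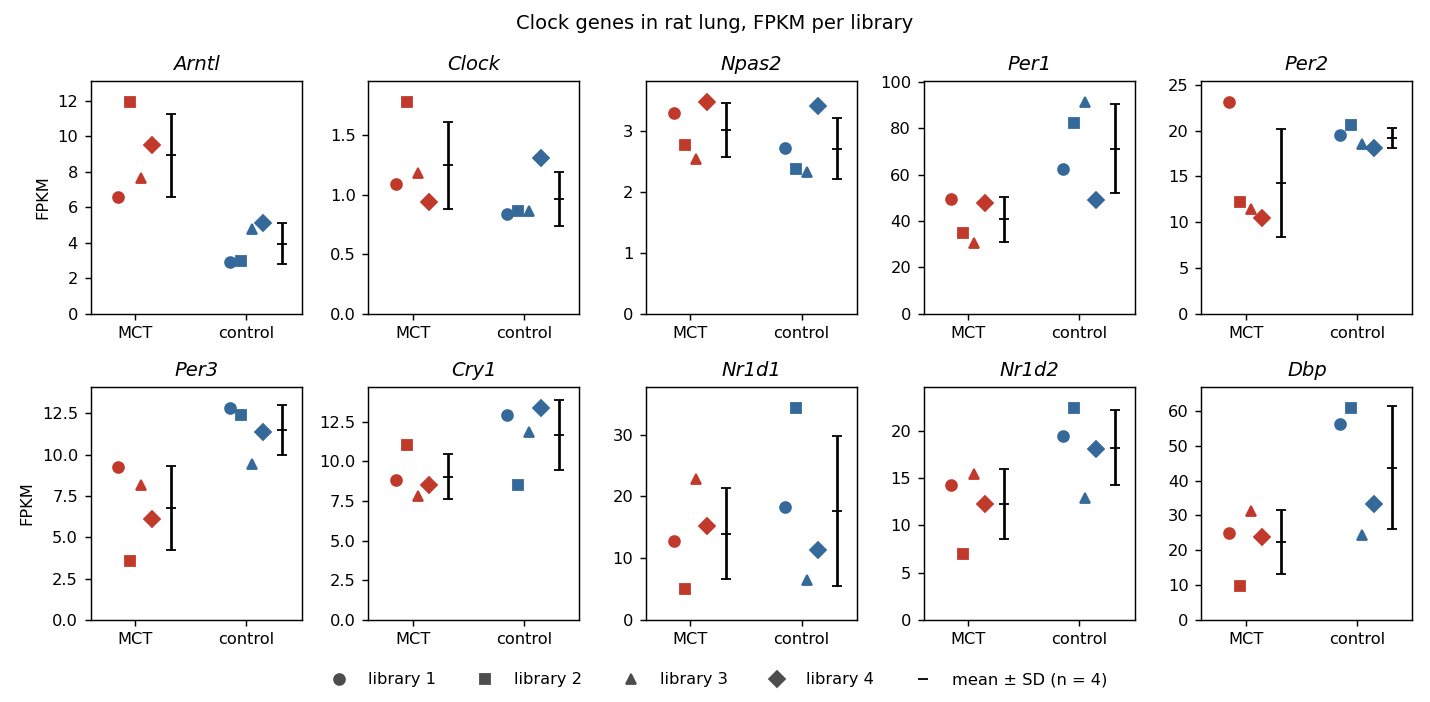
FPKM (fragments scaled to transcript length and library depth) of each clock gene on the vertical axis in the 4 MCT libraries (red, left) and the 4 control libraries (blue, right), with a symbol for each library and bars for the mean ± SD (n = 4). Arntl lay higher in all MCT libraries than in any control library and Per3 lower, while the ranges of the other 8 genes overlapped.

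The libraries differed in more than treatment. Read pairs assigned to genes were estimated at about 10.8 to 18.1 M per library. MCT 1 and control 1 lay apart on the second principal component (15.3% of the variance), at 77.2 and 24.8, against -36.9 to -4.46 for the other libraries. Lung markers were abundant in every library, with a summed level over the surfactant genes Sftpc and Sftpb, Ager, Scgb1a1 and Cdh5 of 26300 to 50200 FPKM in MCT and 36300 to 46900 FPKM in control. Scgb1a1 alone was at 30469.33 FPKM in MCT 1. Of these lung markers Sftpc was called lower in MCT (log2 fold change -0.51, SE 0.15, edgeR adjusted p 0.0387). Sftpc and Sftpb each lay below every control library in all MCT libraries, though Sftpb did not pass the threshold (adjusted p 0.0717). Markers of other cells also moved. All 5 mast cell markers were higher in MCT, with summed levels of 189 to 908 FPKM in MCT and 6.07 to 13.8 FPKM in control, and so were all 5 cell cycle genes, at 57.7 to 70.3 FPKM in MCT and 10.6 to 18.8 FPKM in control. Of 5 macrophage markers 4 were higher, at 433 to 814 FPKM summed in MCT and 182 to 281 FPKM in control. No marker of these 3 lists was at 0 in any library. The part of this change in cell makeup in the clock gene results was not tested, and in whole lung fewer cells of a type and less RNA per cell cannot be told apart.

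Arntl (ENSRNOG00000014448), the activator without which the clock stops in mice, lies on chromosome 1 from 178039063 to 178137465 in Rnor_6.0. It was measured at 6.60, 11.92, 7.65 and 9.50 FPKM in MCT libraries 1 to 4, against 2.93, 2.95, 4.75 and 5.13 FPKM in control libraries 1 to 4. Every MCT library lay above every control library, as was the case for 13.3% of all tested genes, and the lowest MCT library, MCT 1, was nearest to the highest control library, control 4. The means were 8.92 ± 2.33 FPKM in MCT and 3.94 ± 1.17 FPKM in control (SD, n = 4 each). The log2 fold change was 1.18 (SE 0.24), with an adjusted p of 0.00956 in edgeR's quasi-likelihood test. It was past the threshold in all 18 alternative fits, at log2 fold changes of 1.01 to 1.32 and adjusted p of 6.64e-05 to 0.0316 over edgeR, limma and DESeq2.

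The promoter of Arntl is shown because the REV-ERB repressors act on this gene through a motif read as TAGGTNA. Promoters were available from RefSeq (build GRCr8) for 9 of the 10 members, with 11 start sites in all, and Arntl is listed there as Bmal1. These motifs were searched on both strands in the 250 bases before each start: CACGTG (the E-box), CACGTT (a variant E-box), TTATGTAA and TTACGTAA (D-boxes, bound by DBP), TAGGTNA, and TGACGTCA (the cAMP response element). The window of Arntl held TAGGTNA 2 times, starting 52 and 16 bases before the start. Of 33469 RefSeq promoters 7.55% held it at least once, and of the 9 members with a promoter here Arntl was the only one with a match. The bases from 77 to 1 before the start, on the plus strand at chr1:176766251-176766327, are given below with the matches in capitals.
Arntl: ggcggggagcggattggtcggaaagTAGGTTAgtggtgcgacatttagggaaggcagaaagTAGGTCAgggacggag

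Clock and Npas2 encode the alternative partners of ARNTL. Clock had the fewest counts of the members in total, though not in MCT 2 or MCT 3, with 341 to 835 estimated counts per library. Its levels were 1.09, 1.78, 1.18 and 0.94 FPKM in MCT libraries 1 to 4 and 0.84, 0.86, 0.86 and 1.31 FPKM in control libraries 1 to 4. MCT 2 was highest, control 4 came next, and the groups overlapped. The log2 fold change was 0.36 (SE 0.23, edgeR adjusted p 0.305). Npas2 stood at 2.53 to 3.47 FPKM in MCT and 2.33 to 3.41 FPKM in control, almost the same range, with a log2 fold change of 0.16 (SE 0.16, edgeR adjusted p 0.551). Per length, Npas2 was more abundant than Clock in every library. The per-library log2 CPM (counts scaled to library depth) difference Npas2 minus Clock averaged 0.17 ± 0.55 in MCT and 0.35 ± 0.13 in control (SD, n = 4 each). Their changes were not distinguishable in a two-sided exact permutation test of 4 against 4 libraries (difference -0.18, p = 0.6, adjusted p = 0.9 over 6 pairs of paralogs).

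Among the repressors, Per1 (ENSRNOG00000007387, chromosome 10 from 55687050 to 55695994) was the only member called lower. Per1 responds to glucocorticoids and other outside signals as well as to the clock. Its levels were 49.57, 34.70, 30.44 and 47.96 FPKM in MCT libraries 1 to 4 and 62.29, 82.26, 91.25 and 49.19 FPKM in control libraries 1 to 4. Control 4 lay just below MCT 1 and apart from the other controls, so the groups overlapped. The means were 40.7 ± 9.53 FPKM in MCT and 71.2 ± 19.0 FPKM in control (SD, n = 4 each), with a log2 fold change of -0.81 (SE 0.24, edgeR adjusted p 0.0412). The estimate was below 0 in every alternative fit, but the call held in only 3 of the 8 fits that left out 1 library. Among fits with libraries left out it was lost without MCT 2, MCT 3, control 1, control 2 or control 3 (adjusted p 0.111, 0.0968, 0.0555, 0.0946 and 0.0988) and with MCT 1 and control 1 both left out (0.0511).

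Per3, a period gene closely coupled to the clock loop, was lower in every MCT library than in any control library, which was the case for 11.7% of all tested genes. It stood at 9.28, 3.54, 8.17 and 6.13 FPKM in MCT libraries 1 to 4, against 12.81, 12.38, 9.42 and 11.36 FPKM in control libraries 1 to 4. MCT 1 and control 3 were nearly level, and MCT 2 was far below the rest. With a log2 fold change of -0.76 (SE 0.27) it missed the threshold in edgeR (adjusted p 0.0782). DESeq2 placed it past the threshold (adjusted p 0.0121), as did edgeR without MCT 1 (0.0327), the only 2 of 18 alternatives to do so.

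Per2, another period gene, was low in 3 of the 4 MCT libraries. Its levels were 23.10, 12.18, 11.47 and 10.5 FPKM in MCT libraries 1 to 4, against 19.54, 20.60, 18.54 and 18.11 FPKM in control libraries 1 to 4. MCT 1 was the highest of all 8 libraries, while the other MCT libraries lay well below every control library. Over all libraries the log2 fold change was -0.42 (SE 0.24, edgeR adjusted p 0.269). Without MCT 1 it was -0.77 (SE 0.09, adjusted p 0.00102), and with MCT 1 and control 1 both left out it was -0.76 (SE 0.10, adjusted p 0.00281). Only these 2 of 18 alternatives passed the threshold, and both left out the MCT library whose Per2 value ran against a decrease. Leaving out any other single library gave edgeR adjusted p of 0.321 to 0.472. MCT 1 also had the highest mean log2 CPM of the ciliated cell markers, 4.86. MCT libraries 2 to 4 had 2.84 to 3.73 and the controls 3.06 to 4.51. By summed FPKM the highest ciliated level was in a control library, at 737 FPKM, against at most 674 FPKM in MCT. The mean log2 CPM also includes Dnah5, at 0.1 FPKM or less, which was listed at 0 in MCT 2, MCT 4 and control 2. The mean log2 CPM over the 4 tested cardiac myocyte markers was highest in MCT 1, at 3.31. It was 1.97 to 2.73 in MCT libraries 2 to 4 and 2.53 to 3.16 in the controls. The untested marker Myl7, an atrial myosin light chain gene, was at 18.71 FPKM in MCT 1, listed at 0 in MCT libraries 2 to 4 and at 3.25 FPKM in control 1, while the atrial peptide gene Nppa was listed at 0 in MCT 1. The part of these cells in the Per2 value was not tested.

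The Per2 promoter window held both a D-box, TTATGTAA, starting 192 bases before the start, and the variant E-box CACGTT, starting 62 bases before it. It is shown as the member with matches to motifs of 2 arms of the loop. Of all RefSeq promoters 0.828% held TTATGTAA and 4.07% held CACGTT. The stretch lies on the minus strand at chr9:99497025-99497210 (GRCr8), with the matches in capitals.
Per2: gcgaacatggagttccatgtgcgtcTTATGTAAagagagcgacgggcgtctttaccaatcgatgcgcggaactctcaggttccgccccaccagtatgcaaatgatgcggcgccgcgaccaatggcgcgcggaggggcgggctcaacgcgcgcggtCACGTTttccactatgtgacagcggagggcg

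The changes of the 3 Per genes were not distinguishable from each other. The differences in log2 change were -0.30 for Per1 minus Per2, 0.04 for Per1 minus Per3 and 0.34 for Per2 minus Per3, with adjusted p of 0.9, 1 and 0.9 in the exact permutation tests over 6 pairs. With 4 libraries a group these tests can give no p below 0.0286. After adjustment over the 6 pairs, a single pair at that floor could not pass the threshold. Per-library differences had SDs of 0.46, 0.61 and 0.57 in MCT and 0.37, 0.52 and 0.16 in control. Cry1, whose protein represses the loop along with that of Cry2, was at 7.78 to 11.03 FPKM in MCT and 8.50 to 13.34 FPKM in control. Control 2 fell among the MCT libraries, and the log2 fold change was -0.36 (SE 0.16, edgeR adjusted p 0.132). Cry2, which is not one of the 10 members, had the same log2 fold change, -0.36 (SE 0.11), and passed the threshold at an edgeR adjusted p of 0.0487. No difference between their changes was detectable in the exact permutation test (difference 0.00, adjusted p 1), with SDs of the per-library difference of 0.30 in MCT and 0.17 in control.

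**Figure D2:**
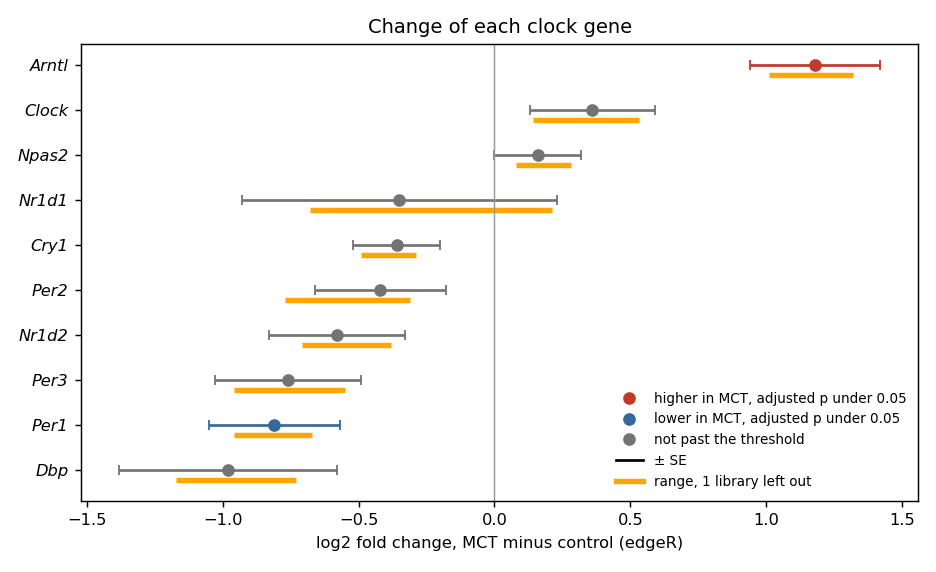
Log2 fold change, MCT minus control, of each clock gene (points, edgeR; horizontal bars, SE) with the range of the estimate when each library was left out in turn (orange). Arntl was the only member above 0 and past the threshold, Per1 the only one below 0 and past it, and the range for Nr1d1, -0.68 to 0.21, crossed 0.

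The REV-ERB genes and Dbp are direct targets of the ARNTL and CLOCK pair, and of the 10 members Nr1d1 and Dbp varied most between libraries. Nr1d1 (ENSRNOG00000009329, chromosome 10 from 86683875 to 86690815) was at 12.79, 4.96, 22.77 and 15.25 FPKM in MCT libraries 1 to 4 and 18.30, 34.24, 6.52 and 11.24 FPKM in control libraries 1 to 4. The highest library exceeded the lowest 4.59-fold within MCT and 5.25-fold within control, and the groups overlapped widely. No direction can be given, since the log2 fold change of -0.35 (SE 0.58, edgeR adjusted p 0.729) became 0.21 (SE 0.52) without control 2. Nr1d1 overlaps Thra, a thyroid hormone receptor gene on the opposite strand, by 1059 bases, and whether reads were counted by strand is not stated. Thra averaged 37.5 FPKM in MCT and 39.6 FPKM in control. No other member overlaps an annotated gene in the table.

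Nr1d1 has 2 start sites in RefSeq, and each had a match to a form of the E-box, through which the ARNTL pair acts on it. The upstream site held the variant form, read here on the opposite strand as AACGTG, starting 174 bases before the start. The internal site held the palindromic form CACGTG, starting 191 bases before its start. It was the only one of the 11 start sites with CACGTG, which 5.59% of all RefSeq promoters held. The stretches lie on the minus strand at chr10:84231956-84232011 and chr10:84229615-84229670 (GRCr8), with the matches in capitals.
Nr1d1, upstream start: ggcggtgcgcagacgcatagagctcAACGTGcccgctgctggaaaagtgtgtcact
Nr1d1, internal start: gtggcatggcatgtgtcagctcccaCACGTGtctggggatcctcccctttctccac

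Nr1d2 was at 14.3, 7, 15.47 and 12.22 FPKM in MCT libraries 1 to 4, against 19.47, 22.38, 12.93 and 18.06 FPKM in control libraries 1 to 4. Control 3 lay among the MCT libraries and MCT 2 below all others. The log2 fold change was -0.58 (SE 0.25, edgeR adjusted p 0.145). The changes of Nr1d1 and Nr1d2 were not distinguishable (difference 0.34, adjusted p 0.9, exact permutation test). Dbp (ENSRNOG00000021027, chromosome 1 from 101687855 to 101692846) encodes an activator that carries the rhythm to output genes through D-boxes. Its levels were 24.81, 9.67, 31.23 and 23.68 FPKM in MCT libraries 1 to 4, against 56.33, 60.73, 24.47 and 33.28 FPKM in control libraries 1 to 4. Controls 1 and 2 lay far above the rest, and controls 3 and 4 beside the MCT libraries. Dbp had the largest estimate of the 10 members below 0, -0.98 (SE 0.40), but its spread kept it from the threshold in edgeR (adjusted p 0.129). DESeq2 placed it past the threshold (adjusted p 0.0214), the only 1 of 18 alternatives to do so.

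Some clock genes stood high or low in the same libraries of a group. In MCT 2, Arntl and Clock were at their highest of all 8 libraries, while Nr1d1, Nr1d2, Dbp and Per3 were at their lowest. Among the controls, Arntl was lower in libraries 1 and 2 than in 3 and 4, and Nr1d1 and Dbp were higher in 1 and 2 than in 3 and 4. Library MCT 2 deviated from its group mean by 0.45 for Arntl, -1.29 for Nr1d1, -1.08 for Dbp, -0.75 for Nr1d2 and -0.85 for Per3 on the log2 CPM scale. Control 3 deviated by 0.32 for Arntl, -1.16 for Nr1d1, -0.73 for Dbp, -0.46 for Nr1d2 and -0.27 for Per3. In both libraries Arntl stood on the opposite side of its group mean from these 4 genes.

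**Figure D3:**
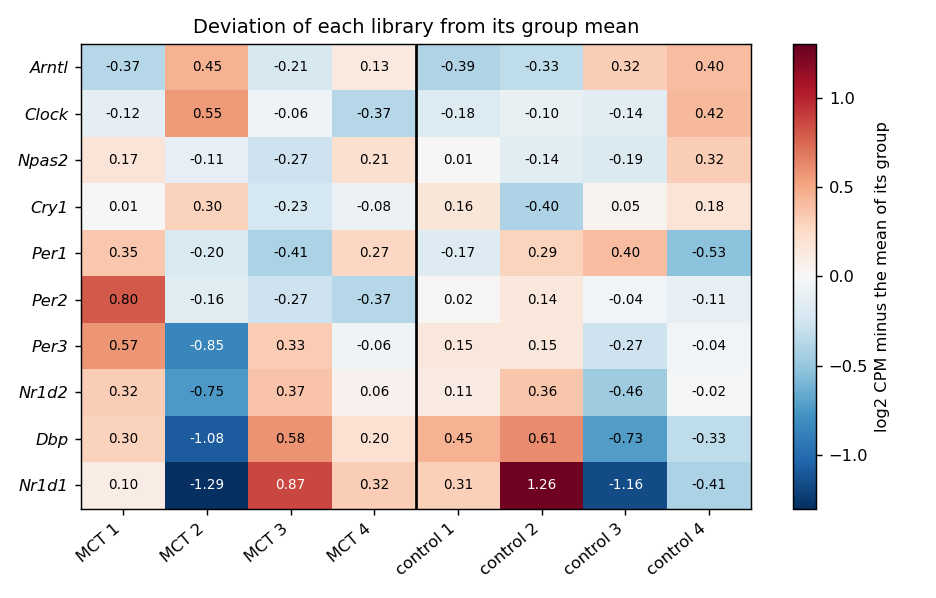
Deviation of each library from the mean of its own group (log2 CPM; red above, blue below) for the 10 clock genes, with MCT libraries on the left and control libraries on the right of the line. In every library but MCT 4, the rows of Per3, Nr1d2, Dbp and Nr1d1 share a sign, opposite to that of Arntl. In MCT 4, Nr1d2, Dbp and Nr1d1 have the same sign as Arntl, and Per3 has the opposite sign.

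Correlations of these deviations over the 8 libraries were computed for all 45 pairs of members, a measure chosen after the values were seen. Since deviations are taken from group means, a difference between the groups cannot enter them. Among Per3, Nr1d1, Nr1d2 and Dbp, all 6 pairs were positive, with Pearson's r of 0.74 to 0.96. These 4 members were picked after the values were seen. Per2 was less closely related to them, with r of 0.52, 0.09, 0.31 and 0.21 in the same order. Arntl was negatively related to each of the 4, with r of -0.89 to -0.80. Cry1 was also negatively related to Nr1d1, Nr1d2 and Dbp, with r of -0.82, -0.71 and -0.72 and adjusted p of 0.156, 0.294 and 0.286. Nr1d2 and Dbp had r = 0.96 and Spearman's rho = 0.95, with an exact permutation p of 0.00174, the smallest that the 576 arrangements within groups can give, for r and 0.00347 for rho. The adjusted p over the 45 pairs was 0.0586 for r and 0.125 for rho, and r was 0.80 without MCT 2 and control 3, the libraries farthest from the median of Nr1d2. Arntl and Dbp had r = -0.89 (exact permutation p 0.0208, adjusted p 0.117) and rho = -0.79 (p 0.0503, adjusted p 0.227), and r = -0.84 without MCT 2 and control 4. Of the 45 pairs, 11 had an unadjusted p under 0.05 for r and 0 an adjusted p under 0.05. Per1 followed none of this: its r with Nr1d1, Nr1d2 and Dbp was 0.03, 0.02 and 0.07, with adjusted p of 0.969 each. It was not alone, since the r of Npas2 with the same genes was -0.07, 0.13 and 0.02, and Per2 was also weakly related to them.

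**Figure D4:**
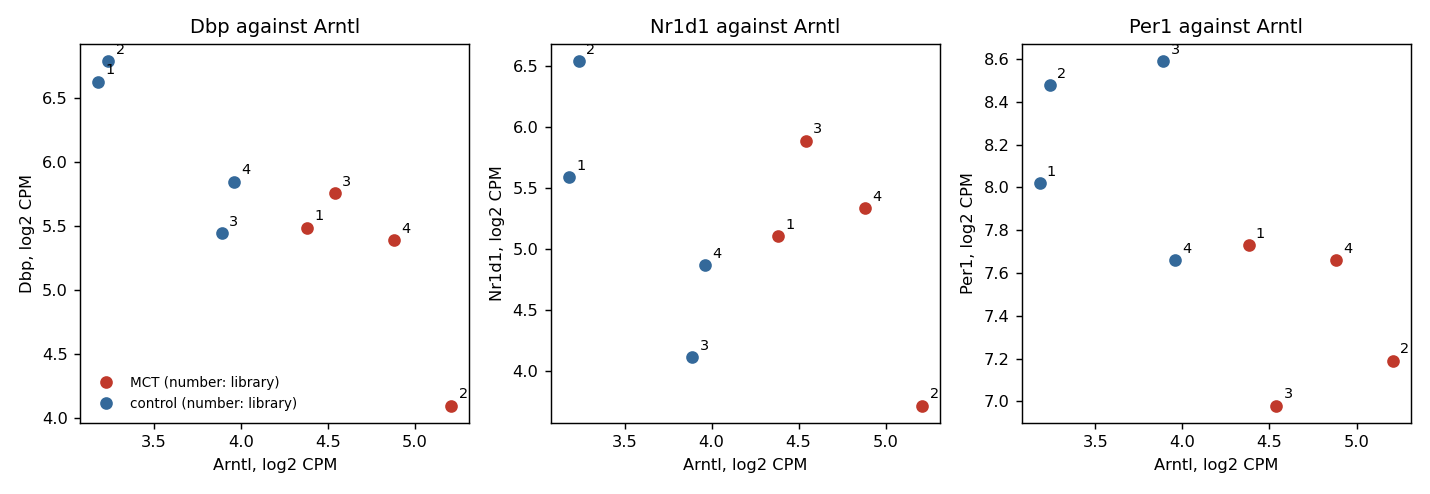
Log2 CPM of Dbp, Nr1d1 and Per1 (vertical axes) against that of Arntl (horizontal axes), 1 point per library, with MCT in red and control in blue and the library number beside each point. MCT 2 has the highest Arntl and the lowest Dbp and Nr1d1, and for Nr1d1 the groups overlap on the vertical axis.

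The level of Dbp relative to Arntl is given per library with no test, since it was chosen after the values were seen. The ratio of Dbp FPKM to Arntl FPKM was 3.76, 0.811, 4.08 and 2.49 in MCT libraries 1 to 4, against 19.2, 20.6, 5.15 and 6.49 in control libraries 1 to 4. All MCT libraries lay below all controls, and controls 3 and 4 were nearer to the MCT libraries than to controls 1 and 2. The ratio of Nr1d1 to Arntl overlapped, at 0.416 to 2.98 in MCT and 1.37 to 11.6 in control.

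The spread of the clock genes between libraries was wide beside that of most genes. The SD of log2 CPM within groups, pooled over both groups, had a median of 0.39 for the 10 members and 0.25 for all genes tested. It was 0.98 for Nr1d1, above that of 91.1% of tested genes, and 0.69 for Dbp, above 84.3%. Npas2 and Cry1, at 0.23 and 0.25, lay near the median of all genes. Taken by group, the median SD of the members was 0.46 in MCT and 0.31 in control, and that of all tested genes 0.23 in both.

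**Figure D5:**
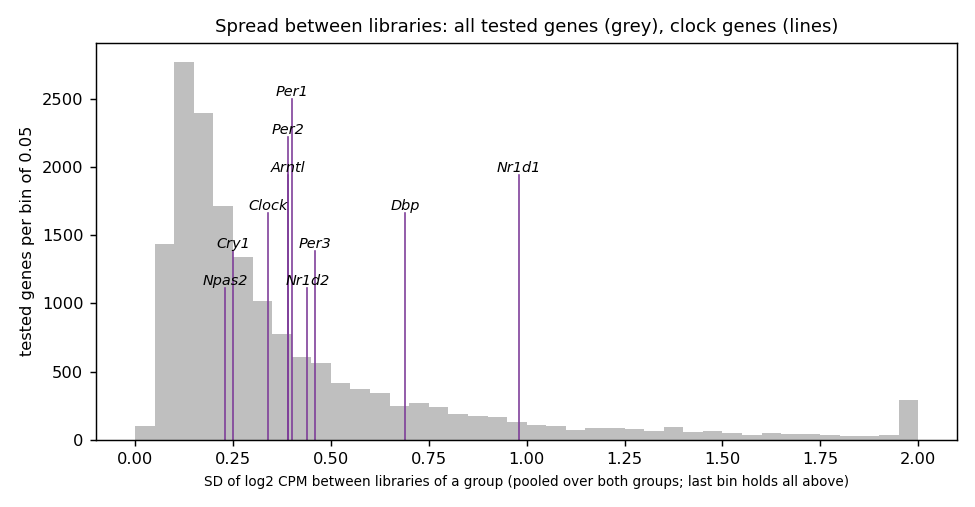
Number of tested genes (grey bars, vertical axis) by the SD of log2 CPM between libraries of a group, pooled over both groups (horizontal axis), with a line for each clock gene. Nr1d1 (0.98) and Dbp (0.69) lie in the right tail, and Npas2 (0.23) and Cry1 (0.25) near the median of all genes, 0.25.

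A wider list of 22 clock genes, none of them among the 10, gave 1 higher and 3 lower of the 20 tested, with 16 not past the threshold and a median log2 fold change of -0.10. Called at adjusted p under 0.05 over all genes were 20.5% of tested genes, against these 4 of 20. Cry2 and Tef were among the lower ones. Tef, a D-box activator related to Dbp, was at 50.44, 26.97, 46.61 and 44.01 FPKM in MCT libraries 1 to 4, against 72.57, 67.93, 58.17 and 70.05 FPKM in control libraries 1 to 4, with no overlap (log2 fold change -0.68, SE 0.18, edgeR adjusted p 0.0271). The higher one was Skp1, a subunit of ubiquitin ligases that act on many proteins besides the CRY proteins (0.37, SE 0.09, adjusted p 0.0229). Without 1 library the number lower ranged from 0 (MCT 3 or control 4) to 4, and was 1 without MCT 2, MCT 4, control 1 or control 3. The number higher was 0 without MCT 3, control 2 or control 3. The casein kinase genes Csnk1d and Csnk1e, whose products mark PER proteins for breakdown, had log2 fold changes of -0.09 (SE 0.08) and -0.27 (SE 0.10), neither past the threshold.

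Nfil3, a repressor at D-boxes that REV-ERB proteins repress in mice, was chosen for display after its values were seen. It was at 6.81, 13.18, 5.90 and 8.32 FPKM in MCT libraries 1 to 4 and 5.32, 3.14, 6.86 and 5.28 FPKM in control libraries 1 to 4. Its highest MCT and control libraries, MCT 2 and control 3, were the lowest of their groups for Nr1d1, and its lowest, MCT 3 and control 2, were the highest for Nr1d1. The log2 fold change was 0.73 (SE 0.29, edgeR adjusted p 0.112).

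Of 14 tested genes on a list of clock outputs, 6 were lower and 1 higher, with a median log2 fold change of -0.42. Over all tested genes 9.45% were called lower and 11% higher, and the median was 0.03. The list also holds genes driven by other signals, glucocorticoids and p53 among them. Its 2 called members of smallest p were Klf15, a metabolic transcription factor, and Pdk4, a kinase that inhibits pyruvate dehydrogenase. Klf15 averaged 19.8 ± 4.44 FPKM in MCT and 37.2 ± 4.73 FPKM in control (SD, n = 4 each; -0.91, SE 0.17, edgeR adjusted p 0.00692). Pdk4 averaged 2.25 ± 0.729 FPKM in MCT and 5.58 ± 1.01 FPKM in control (-1.31, SE 0.26, adjusted p 0.00792). The higher one was Cdkn1a, also a p53 target, at 1.18 (SE 0.26, adjusted p 0.0133).

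Because Per1 responds to glucocorticoids and to immediate early signals, those lists are given beside it. Of 15 tested glucocorticoid response genes, 3 were lower and 2 higher, beside 9.45% lower and 11% higher over all tested genes, with a median log2 fold change of -0.43 against 0.03 over all tested genes. The third lower one, Tsc22d3, stands in both this list and that of clock outputs and is counted in each. Zbtb16 (-1.56, SE 0.26, edgeR adjusted p 0.00399) and Klf9 (-0.84, SE 0.15, adjusted p 0.00505) were lower, with MCT values below all controls. Sgk1 (0.72, SE 0.14, edgeR adjusted p 0.00672) and Mt2A (1.83, SE 0.45, adjusted p 0.0234) were higher, with MCT values above all controls. The mean log2 CPM over the list was 6.60 to 7.12 in MCT and 6.90 to 7.31 in control. Of 16 immediate early genes 2 were higher and 0 lower, beside 11% and 9.45% of all tested genes, namely Myc (0.54, SE 0.09, adjusted p 0.00302) and Egr2 (0.84, SE 0.24, adjusted p 0.0394). Their part in the Per1 result was not tested.

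Genes whose log2 CPM over the 8 libraries was most like that of Arntl were ranked by Pearson's r among 11525 named genes with a mean of at least 2 FPKM in the higher group. The 5 highest were Col5a3 (r = 0.99), Snx18 (0.981), Gmds (0.977), Mcm6 (0.969) and Ptpn7 (0.968), all called higher in MCT. For Dbp they were Nr1d2 (0.976), Pot1b (0.957), Fbxo40 (0.937), Spry2 (0.933) and Acoxl (0.927), none called. On deviations from group means, the 5 nearest to Arntl were Spg7 (0.983), Col5a3 (0.967), Gzma (0.966), Mesp2 (0.965) and Tshz2 (0.957). Those nearest to Dbp were Lipt2 (0.978), Metazoa_SRP (0.962), Nr1d1 and Nr1d2 (0.96 each) and Tyw5 (0.954). So high an r is the top of a long ranking over only 8 libraries and is given as a description. Without removal of group means, the r with Arntl also favours genes higher in MCT, since Arntl itself was higher there. Both REV-ERB genes were among the 5 nearest to Dbp on the deviations. No other clock gene was among the 5 nearest to Arntl, but the ranking took only the highest positive r. Genes that ran opposite to Arntl, as Dbp and the REV-ERB genes did on the deviations, could not appear there.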

How the data were processed

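Reads were processed with cutadapt 1.9, HISAT2 2.0.4, StringTie 1.3.4d and edgeR per the submitters' processing notes, with Rnor_6.0 as the genome; their order and settings are not stated there. Libraries were made with oligo(dT) beads, per the labels' protocols. The authors deposited an estimated count and an FPKM value per gene and library, per the file headers. Whole numbers throughout, the deposited estimated counts total 39.8 to 66.6 M per library. Their low values are spaced by about 3.67 units, taken here as 1 read pair. The read pairs assigned to genes were thus estimated at 10.8 to 18.1 M per library.

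Counts were rounded, which changed no value, filtered with filterByExpr (minimum count 10, 16715 genes left), scaled by TMM and tested with edgeR 4.0.16 (quasi-likelihood, robust, R 4.3.3), with Benjamini-Hochberg adjustment and a threshold of 0.05. Log2 CPM used a prior count of 2. Paralogs were compared by exact permutation tests. Alternatives used limma 3.58.1 on log2(FPKM + 0.5) and DESeq2 1.42.0, among others. No library duplicated another (chi-square per gene at least 14.1 within groups).

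The members and lists were chosen with earlier results of these data known. Named genes were the 10 members, the called genes of the wider clock list, the 2 called genes of smallest p in each of the 3 other lists, and the 5 genes most like Arntl and Dbp. Other genes are given as examples, and 1 called gene of the wider list is not reported here. Pecam1, Foxj1 and Ccrn4l, on the lists, had no row by those symbols. The promoters come from RefSeq (GRCr8) and were not placed on Rnor_6.0.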

Additional observations from a re-analysis of the deposited data

Results flagged for a closer look

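Of 28 sets of 4 libraries examined, 1 held a library far from its group, about as many as the 1.4 that chance gives. For Clock, control 4 stood at 1.31 FPKM and the remaining controls at 0.84 to 0.86 FPKM. On log2 CPM the gap between control 4 and its nearest neighbour made up a share of 0.869 of the whole range in control.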

How the results depend on the processing

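Arntl stayed the only member higher under all 18 alternatives. The number of members lower was 1 by edgeR, 3 with DESeq2 (Per1, Per3 and Dbp) and 0 to 3 with 1 library left out, being 3 without MCT 1 (Per1, Per2 and Per3). Without 1 library, the wider clock list had 0 to 1 higher and 0 to 4 lower. All genes called numbered 1845 higher and 1579 lower, with ranges of 1191 to 1946 and 975 to 1730, the lowest counts being without MCT 2. Deviations of same-numbered libraries correlated at 0.11, 0.0165, -0.0165 and -0.0848, and the control most like MCT 1 was control 1. Whether same-numbered libraries share a batch was not tested. With the replicate number as a block, 0 members were lower, Per1 had an edgeR adjusted p of 0.139 and 1 gene of the wider list was lower. Of the paralog differences, Npas2 minus Clock ranged from -0.38 to 0.04 with 1 library left out, Per1 minus Per3 from -0.18 to 0.29, and Cry1 minus Cry2 from -0.14 to 0.08. On log2(FPKM + 0.5) Per1 minus Per3 and Cry1 minus Cry2 were 0.00 with the opposite sign before rounding, and Cry1 minus Cry2 was 0.15 with control 1 and MCT 1 left out. None of the 6 passed the threshold in any alternative, and those with 4 pairs or 3 libraries a group can give no p below 0.125 or 0.1. With 1 library left out, Nr1d1 ranged from -0.68 to 0.21, above 0 only without control 2. The causes were not tested.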
